A study of Rattus norvegicus with 10 samples.

Results

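Interferon-stimulated genes are the genes that cells switch on when interferons bind their receptors, and 36 of them were followed in the RNA of rat sensory axons. They were taken as a list of names. This and the other gene lists below were chosen with earlier results of these data known, so counts set against all genes are descriptions. Of the 36 genes, 30 had a probe set that the array's annotation ties to a single gene symbol, out of 14217 such genes on the array. The other 6 could not be analysed here. Oas1i had only a probe set with several symbols, and Oas2, Gbp5, Ifi47, Xaf1 and Samd9l had no probe set named in the annotation used. Where a gene had several such probe sets, the brightest on average was used.

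The samples were axons of dorsal root ganglion neurons, the sensory neurons whose cell bodies lie beside the spinal cord. There were 5 samples from embryonic day 16 rats and 5 from adult rats, with no strain, sex or exact adult age in the labels. Both groups were untreated explant cultures kept for 4 days in compartmented chambers, from whose outer compartment axons longer than 1 cm were collected, so no sample was taken fresh from an animal. The labels call the 5 samples of a stage biological replicates. They do not say whether animals were pooled for a sample.

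Type I interferons signal through the receptor chains Ifnar1 and Ifnar2 and the kinases Jak1 and Tyk2, which activate Stat2. Stat2 and Irf9 act in a complex that binds the interferon-stimulated response element (ISRE) in target promoters. Interferon gamma signals through Ifngr1, Ifngr2, Jak1 and Jak2, and its target promoters carry the gamma-activated site (GAS). The target genes encode sensors of foreign RNA, antiviral enzymes and GTPases, and regulators that feed back on the pathway. Macrophages and other immune cells hold many of these transcripts even without infection, and neurons and glia also respond to interferon.

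Many, not all, of the promoters searched held these letters, and stretches are shown so that they can be read beside the expression values. Promoter windows of 300 bases, 250 before and 50 after the annotated start, were found in RefSeq's GRCr8 rat table for 26 of the 36 genes. The ISRE core, GAAA and again GAAA with any 2 bases between, read on both strands, was present in 17 of the 26 windows, against 3.92% of all 33469 windows. The GAS letters TTCNNNGAA, which read the same on both strands, were present in 9 of the 26, against 8.87% of all windows. Neither was found in 6 of the 26, those of Mx1, Stat2, Oasl, Ifi35, Herc6 and Parp9. A match is a description of the letters and not evidence of binding. In the windows of Parp14, Igtp and Irgm the GAS letters ended 2 bases before the ISRE core, and 7 of all 33469 windows had this arrangement in either orientation. In Bst2 the GAS letters overlapped the leading part of the ISRE letters. This arrangement was noticed in the sequences and not searched for beforehand.

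The stretches of Parp14, Igtp, Irgm and Bst2 are shown for that arrangement. Ifi44 and Irf7 are shown as genes with higher mean levels in adult samples, and Oas1a and Rsad2 as genes below the background level on every array. Capitals mark the ISRE core, positions count from the annotated start, each stretch is read along the gene's own strand, and coordinates are GRCr8. Parp14 (chr11:78408033-78408092, plus strand) runs from position -101 to -42, Igtp (chr10:42874919-42874978, plus strand) from -128 to -69, and Irgm (chr10:33742579-33742637, minus strand) from -59 to -1. Bst2 (chr16:18255058-18255123, minus strand) runs from -156 to -91, Ifi44 (chr2:243303841-243303891, minus strand) from -51 to -1, and Irf7 (chr1:205800058-205800117, minus strand) from -94 to -35. Oas1a (chr12:41330400-41330465, plus strand) runs from -66 to -1 and Rsad2 (chr6:48788233-48788292, minus strand) from -172 to -113.
Parp14: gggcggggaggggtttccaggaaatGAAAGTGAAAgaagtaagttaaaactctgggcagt
Igtp: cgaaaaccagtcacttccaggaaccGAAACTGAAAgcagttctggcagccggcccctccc
Irgm: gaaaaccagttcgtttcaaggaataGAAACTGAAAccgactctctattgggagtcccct
Bst2: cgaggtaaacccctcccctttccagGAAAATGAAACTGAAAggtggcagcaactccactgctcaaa
Ifi44: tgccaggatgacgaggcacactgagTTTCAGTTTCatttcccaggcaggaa
Irf7: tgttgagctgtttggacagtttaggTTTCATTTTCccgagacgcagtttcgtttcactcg
Oas1a: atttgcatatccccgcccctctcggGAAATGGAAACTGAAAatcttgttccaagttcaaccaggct
Rsad2: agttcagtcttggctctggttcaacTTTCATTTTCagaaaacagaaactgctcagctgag

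Array medians lay between 2.86 and 3.14 on the log2 scale. Each array's background level, between 2.87 and 4.09, was taken from 80 probe sets for tissue-restricted genes that sensory ganglia should lack, as their 95th percentile. The standard deviation of all values was above the middle of its range on embryonic replicates 1 and 5 and on adult replicates 4 and 5. These 4 are called arrays of wide spread. The other 6 are called narrow. The spiked-in poly-A control transcripts were at 2.00 to 2.65 on embryonic and 7.75 to 11.99 on adult arrays, so the handling of the samples and the stage cannot be told apart for any gene below. Of 10 neuronal markers, 4 fell in adult samples (Nefl, Nefm, Prph and Tubb3) and 0 rose, where 0.647% and 0.612% of all genes did. The median difference of the 10 markers was -2.66. Their mean level was 7.31 to 9.76 on embryonic and 5.69 to 7.69 on adult arrays, and the part of this in the differences below was not tested. Macrophage markers were also present on the adult arrays, as given below. A lower share of the RNA from a cell type and less of a transcript per cell cannot be told apart in such samples.

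The question was whether the axonal samples of adult and embryonic ganglia differ in interferon-stimulated transcripts, within a series on axonal growth and pain. None of the genes rose or fell past the threshold. In limma's fit across all 31042 probe sets, 0 of 30 genes had an adjusted p under 0.05, where 1.26% of all genes did, 0.612% higher and 0.647% lower in adult samples. At an unadjusted p under 0.05, 8 of 30 were higher in adult samples and 0 were lower, where 6.28% of all genes were higher and 7.01% lower. The difference, always adult minus embryonic, was above 0 for 22 genes and below 0 for 8, with a median of 0.51 on the log2 scale (all genes: 49.9% above 0, median -8.6e-04). It ranged from -0.90 for Isg15 to 2.45 for Usp18.

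**Figure D1:**
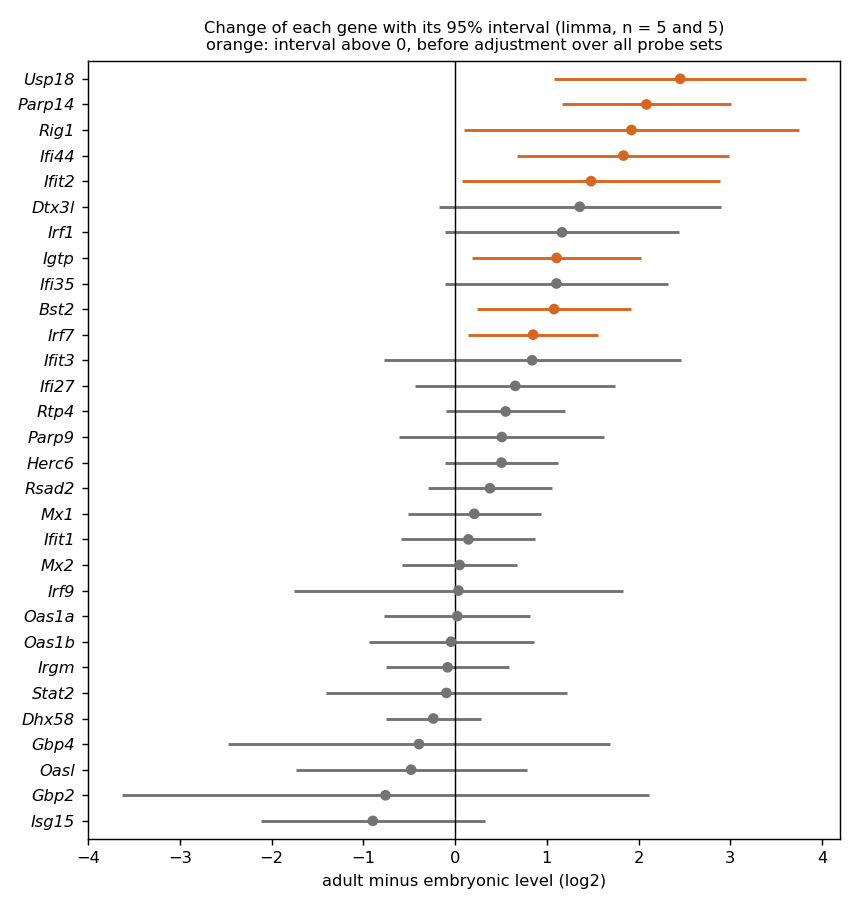
Difference of each interferon-stimulated gene between adult and embryonic samples on the log2 scale (points) with its 95% interval from limma (lines), 5 arrays a stage. The intervals of 8 genes, in orange, lie above 0 before adjustment over all probe sets, and those of 0 genes lie below it.

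Levels were low in both stages. Here a gene counts as above background in a stage if all 5 of its arrays passed their background level. That held for 3 of 30 genes in embryonic samples (Ifi27, Isg15, Stat2) and for 4 in adult samples (Ifi27, Oasl, Parp14, Stat2). Of all 14217 genes it held for 4058 in embryonic and 3387 in adult samples. On all 5 embryonic arrays 15 genes were below background, and on all 5 adult arrays 7, where 3866 and 3314 of all 14217 genes were. The same 7 genes, Herc6, Rsad2, Mx1, Ifit1, Oas1a, Oas1b and Dhx58, were below background on all 10 arrays, where 2654 of all 14217 were. For such genes a low level and absence cannot be told apart, and RMA compresses differences of weak probe sets. More adult than embryonic arrays were above background for 16 genes and fewer for 3. Of all 14217 genes this held for 3618 and 3777.

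**Figure D2:**
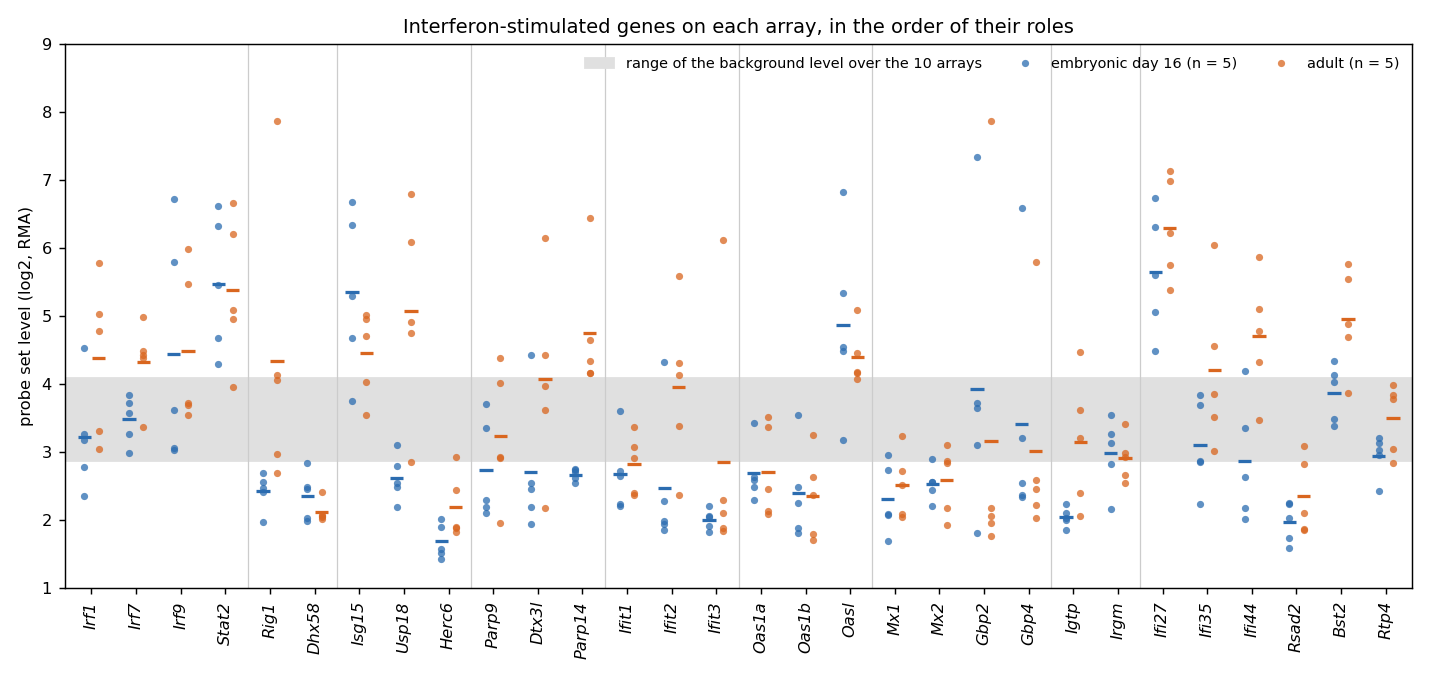
Level of the 30 interferon-stimulated genes on each array (log2, RMA), grouped by role, with embryonic arrays in blue, adult arrays in orange and short lines at the means of 5 arrays. The grey band spans the background levels of the 10 arrays, 2.87 to 4.09, and most genes lie in or under it in embryonic samples.

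The transcription factors did not differ past the threshold, and 3 of 4 had differences above 0. Irf7, the main activator of type I interferon genes, was at 3.85, 3.28, 2.99, 3.73 and 3.57 on embryonic replicates 1 to 5 and at 4.99, 3.37, 4.43, 4.38 and 4.49 on adult replicates 1 to 5. All adult values but that of replicate 2 were above every embryonic value. The difference was 0.85 ± 0.32 (SE; unadjusted p = 0.023, adjusted p = 0.37 by limma). Irf1, an early factor induced by interferon gamma whose promoter window held the GAS letters and no ISRE core, read 3.18, 4.54, 3.27, 2.35 and 2.79 on embryonic and 5.78, 3.31, 3.05, 5.03 and 4.78 on adult arrays. Adult replicates 1, 4 and 5 were high and replicates 2 and 3 lay among the embryonic values. Its difference was 1.16 ± 0.58 (SE; adjusted p = 0.57 by limma).

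Stat2 and Irf9, which act together at the ISRE, were measurable on many arrays and showed no shift of one stage against the other. Stat2 averaged 5.47 ± 1.00 on embryonic and 5.38 ± 1.07 on adult arrays (SD, n = 5), with an interval of the difference from -1.41 to 1.22 on the log2 scale. Its other probe set was at 3.53 and 4.84, a difference of 1.31 (adjusted p = 0.53 by limma), so the probe sets of Stat2 did not give 1 direction. Irf9 was at 4.45 ± 1.70 and 4.49 ± 1.15 (SD, n = 5). Its values followed the spread of the arrays, with 5.48 to 6.72 on the 4 wide arrays and 3.04 to 3.72 on the 6 narrow ones.

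The ISG15 system tags proteins with the ubiquitin-like Isg15, and its members went different ways. Usp18, the protease that takes Isg15 off its targets and restrains the receptor, was at 2.55, 2.50, 3.11, 2.80 and 2.19 on embryonic arrays, all below background. On adult arrays it was at 4.75, 6.79, 2.86, 6.10 and 4.91. Adult replicates 1, 2, 4 and 5 were above every embryonic array, while replicate 3 was among them and below background. The difference was 2.45 ± 0.62 (SE; unadjusted p = 0.0024, adjusted p = 0.12 by limma). The mean adult level was at least 2.82-fold above the embryonic bound, taken as the mean of the higher of background and measured value on each array. Without adult replicate 3 the difference was 3.01 with an adjusted p of 0.019 by limma, so that array decided whether Usp18 passed the threshold.

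Isg15 itself had the lowest difference among the 30 genes. It read 5.30, 6.34, 6.67, 4.67 and 3.76 on embryonic and 4.71, 4.03, 3.55, 4.96 and 5.02 on adult arrays. The stages overlapped, with the highest values on embryonic replicates 2 and 3 and the lowest on adult replicate 3. The difference was -0.90 ± 0.55 (SE; adjusted p = 0.70 by limma), and it was -1.80 within the 6 narrow and 0.46 within the 4 wide arrays. Herc6, a ligase that attaches Isg15 in rodents, was below background on all 10 arrays, at 1.44 to 2.93.

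Parp14, Parp9 and Dtx3l are neighbours on chromosome 11 in the GRCr8 annotation. Parp14 and Parp9 belong to the ADP-ribosyltransferase family and Dtx3l is the ubiquitin ligase that pairs with Parp9. Parp14 was the only gene of the 30 whose stages did not overlap, where 1.67% of all genes had this with adult samples higher. It was at 2.74, 2.75, 2.71, 2.62 and 2.54 on embryonic arrays, all below background and within a narrow range. It was at 6.45, 4.35, 4.16, 4.66 and 4.17 on adult arrays, all above background. The difference was 2.08 ± 0.42 (SE, 95% interval 1.17 to 3.00; unadjusted p = 0.00043), and the adjusted p of 0.051 by limma missed the threshold. The mean adult level was at least 2.25-fold above the embryonic bound.

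Parp14 stood close to the threshold in other ways too. Its adjusted p by limma was 0.015 without adult replicate 1, the highest array, and 0.049 without adult replicate 5, and its difference without replicate 1 was 1.66. Leaving out any of the other 8 arrays gave an adjusted p of 0.067 to 0.12, above the threshold. Its other probe set was below background on all 10 arrays, at 2.31 in embryonic and 2.37 in adult samples, so the difference rests on 1 probe set.

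Dtx3l read 4.43, 2.46, 2.55, 2.20 and 1.94 on embryonic and 3.63, 2.18, 6.15, 3.98 and 4.43 on adult arrays. Only adult replicate 3 lay outside the embryonic range, whose top was embryonic replicate 1. Adult replicate 2 also lay among the other embryonic values. Its difference was 1.36 ± 0.70 (SE; adjusted p = 0.59 by limma). Parp9 read 2.10 to 3.71 on embryonic and 1.96 to 4.39 on adult arrays, with a difference of 0.51 ± 0.51 (SE; adjusted p = 0.87 by limma). Dtx3l lies between Parp9 and Parp14, and Parp9 had the smallest difference of these neighbours.

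Rig1, listed as Ddx58 in older tables, senses viral RNA in the cytosol, and Dhx58 regulates it. Rig1 was at 2.57, 1.98, 2.42, 2.48 and 2.70 on embryonic arrays, all below background, and at 2.70, 2.97, 7.87, 4.14 and 4.07 on adult arrays. Adult replicate 3 was far above the others, replicates 4 and 5 were moderately high, and replicate 1 lay within the embryonic values. The difference was 1.92 ± 0.83 (SE; unadjusted p = 0.041, adjusted p = 0.46 by limma). Dhx58 read 1.99 to 2.84 on embryonic and 2.01 to 2.42 on adult arrays, below background throughout, and its other probe sets were below background as well.

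The IFIT proteins bind foreign RNA and limit its translation, and the genes sit close together on chromosome 1. Ifit2 read 4.32, 1.94, 1.99, 2.28 and 1.86 on embryonic and 5.59, 4.31, 2.37, 4.13 and 3.39 on adult arrays. Only embryonic replicate 1 was high among the embryonic arrays, and adult replicate 3 was low. The difference was 1.48 ± 0.64 (SE; unadjusted p = 0.041, adjusted p = 0.46 by limma), while its other probe set differed by -0.36 and was below background on all arrays. Ifit3 was at 1.83 to 2.30 on 9 arrays and at 6.12 on adult replicate 3. Ifit1 was below background on all 10 arrays, at 2.21 to 3.61, and adult replicate 3, at 3.08, did not stand apart.

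The OAS enzymes make oligoadenylates that activate RNase L. Oas1a and Oas1b were below background on all 10 arrays, at 1.71 to 3.56, although their windows held the ISRE core 2 times each, in overlapping copies. The intervals of their differences ran from -0.77 to 0.82 and from -0.94 to 0.86 on the log2 scale. Oasl, an OAS-like protein, passed background on 4 arrays of embryonic and 5 of adult samples. It was at 4.88 ± 1.34 and 4.40 ± 0.42 (SD, n = 5), with a difference of -0.48 ± 0.57 (SE; adjusted p = 0.90 by limma).

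Mx and guanylate-binding proteins are large GTPases directed at viruses and intracellular pathogens. Mx1 was below background on all arrays, at 1.70 to 3.24, and the 95% interval of its difference ran from -0.52 to 0.94. Mx2 was at 1.93 to 3.11. Gbp2 read 3.65, 3.73, 3.10, 7.35 and 1.82 on embryonic and 1.78, 1.96, 2.18, 2.07 and 7.87 on adult arrays. Gbp2 was therefore high on 1 array of each stage, embryonic replicate 4 and adult replicate 5, and its interval ran from -3.63 to 2.11. Gbp4, which lies next to Gbp2 on chromosome 2, was high on embryonic replicate 3 (6.59) and adult replicate 5 (5.79) and at 2.03 to 3.21 on the other 8 arrays. The 2 neighbours were thus both high on adult replicate 5 but not on the same embryonic array.

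Igtp and Irgm are GTPases of the immunity-related family, induced mainly by interferon gamma. Igtp read 2.11, 2.03, 1.85, 2.24 and 2.01 on embryonic and 3.62, 2.06, 2.40, 3.21 and 4.48 on adult arrays. It was above background on adult replicates 4 and 5 only, and adult replicate 2 lay within the embryonic values. The difference was 1.11 ± 0.42 (SE; unadjusted p = 0.023, adjusted p = 0.37 by limma), and -0.07 for its other probe set, which was below background on all arrays. Irgm, whose promoter stretch resembles that of Igtp in the spacing of its elements, read 2.17 to 3.56 on embryonic and 2.55 to 3.42 on adult arrays, a difference of -0.08 ± 0.30 (SE; adjusted p = 0.98 by limma).

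The remaining effectors all had differences above 0, and 2 of 6 had an unadjusted p under 0.05, where 6.28% of all genes were higher at that level. Ifi44, a cytosolic interferon-induced protein, read 3.36, 2.18, 2.64, 4.20 and 2.02 on embryonic and 5.87, 4.33, 3.47, 5.11 and 4.79 on adult arrays. Only adult replicate 3 fell below the highest embryonic value. The difference was 1.83 ± 0.52 (SE; unadjusted p = 0.0051, adjusted p = 0.18 by limma). Bst2, or tetherin, which holds budding viruses at the cell surface, read 3.49, 4.34, 4.13, 4.03 and 3.38 on embryonic and 3.87, 4.69, 5.55, 5.76 and 4.89 on adult arrays. Only adult replicate 1 overlapped the embryonic range, and the difference was 1.08 ± 0.38 (SE; adjusted p = 0.32 by limma).

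Ifi27, a small mitochondrial protein, was above background on all 10 arrays and had no clear shift, with means of 5.64 ± 0.91 on embryonic and 6.30 ± 0.76 on adult arrays (SD, n = 5; adjusted p = 0.78 by limma). Ifi35, which partners Nmi, read 2.24 to 3.84 on embryonic and 3.03 to 6.05 on adult arrays (adjusted p = 0.57 by limma). Rtp4 was at 2.43 to 3.21 and 2.85 to 3.99 (adjusted p = 0.62 by limma). Rsad2, the antiviral enzyme viperin, was below background on all arrays, at 1.59 to 3.10. Among the 22 measured genes with a promoter window, the median difference was 0.75 for the 14 with an ISRE core and 0.36 for the 8 without one. It was 0.56 for the 8 with the GAS letters and 0.51 for the 14 without them. Both are descriptions.

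The agreement between arrays was uneven. Each gene's level on an array was set against its own mean over the 10 arrays. Embryonic replicates 1 to 5 had 10, 9, 12, 8 and 2 of 30 genes above their own means, and adult replicates 1 to 5 had 14, 14, 15, 17 and 20. Over all genes these shares were 41.7% to 49.8% on embryonic and 41.4% to 52.1% on adult arrays. The highest value of a gene fell on adult replicate 3 for 7 genes, on adult replicate 1 for 6, on adult replicate 5 for 5 and on adult replicate 4 for 1. Rig1, Ifit3 and Dtx3l were highest on adult replicate 3, and Parp14, Ifi44, Ifit2 and Irf1 on adult replicate 1. Gbp2, Ifi35 and Igtp were highest on adult replicate 5. A gene has 1 highest array, so these groups are separate by construction. Some of these genes were also raised on another array. Irf1 was at 5.78 on adult replicate 1 and 4.78 on replicate 5, and Dtx3l at 6.15 on replicate 3 and 4.43 on replicate 5. Others were not, such as Ifit3, at 6.12 on adult replicate 3 and 1.85 on replicate 5. The lowest value fell on embryonic replicate 5 for 10 genes. No array held the highest value of all the genes that differed most.

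**Figure D3:**
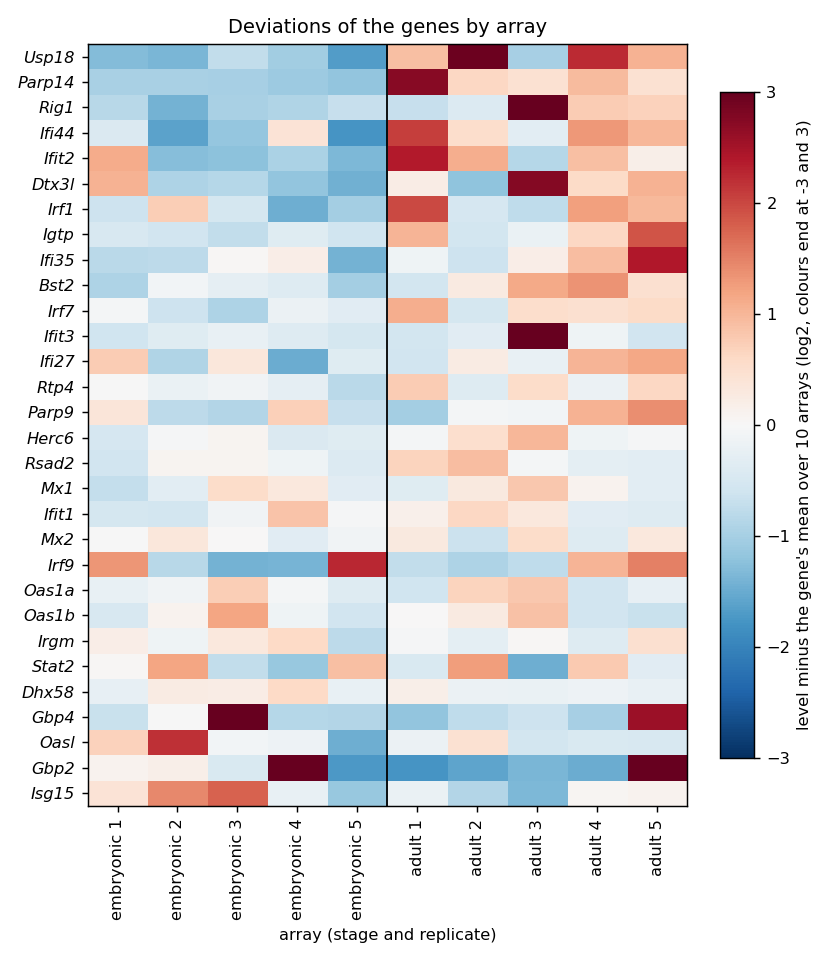
Deviation of each interferon-stimulated gene from its own mean over the 10 arrays (log2, colours end at -3 and 3), with genes ordered by their adult minus embryonic difference. Different genes have their highest value on different adult arrays, such as Rig1 and Ifit3 on adult replicate 3 and Gbp2 on adult replicate 5.

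The spread of the arrays moved with part of this. On embryonic arrays 5 to 14 of the 30 genes were above background and on adult arrays 9 to 22. The narrow adult replicates 1, 2 and 3 had 10, 9 and 9, and the narrow embryonic replicates 2, 3 and 4 had 8, 6 and 7. Of all genes, 41.1%, 44.1% and 38.1% were above background on these adult arrays and 57.1%, 40.1% and 41.6% on these embryonic arrays. The wide adult replicates 4 and 5 had 18 and 22, and the wide embryonic replicates 1 and 5 had 14 and 5. On these adult arrays that was 60% and 73.3% of the 30 genes, beside 66.3% and 69.4% of all genes. On these embryonic arrays it was 46.7% and 16.7%, beside 62.9% and 57.8% of all genes. The median difference of the genes was 0.65 within the wide arrays (2 against 2) and 0.45 within the narrow arrays (3 against 3), with 24 and 22 of 30 genes above 0. The medians of all genes there were 0.02 and -0.05. In the wide arrays 14 genes did not overlap with adult samples higher (26.7% of all genes), and in the narrow arrays 3 did not (7.53% of all genes). With adult samples lower, 1 gene did not overlap in the wide arrays (Oas1b) and 2 in the narrow arrays (Gbp2 and Dhx58). The share of all genes for this direction was not computed. Gbp2 and Gbp4 had differences of 2.24 and 1.56 within the wide and -2.76 and -1.70 within the narrow arrays.

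**Figure D4:**
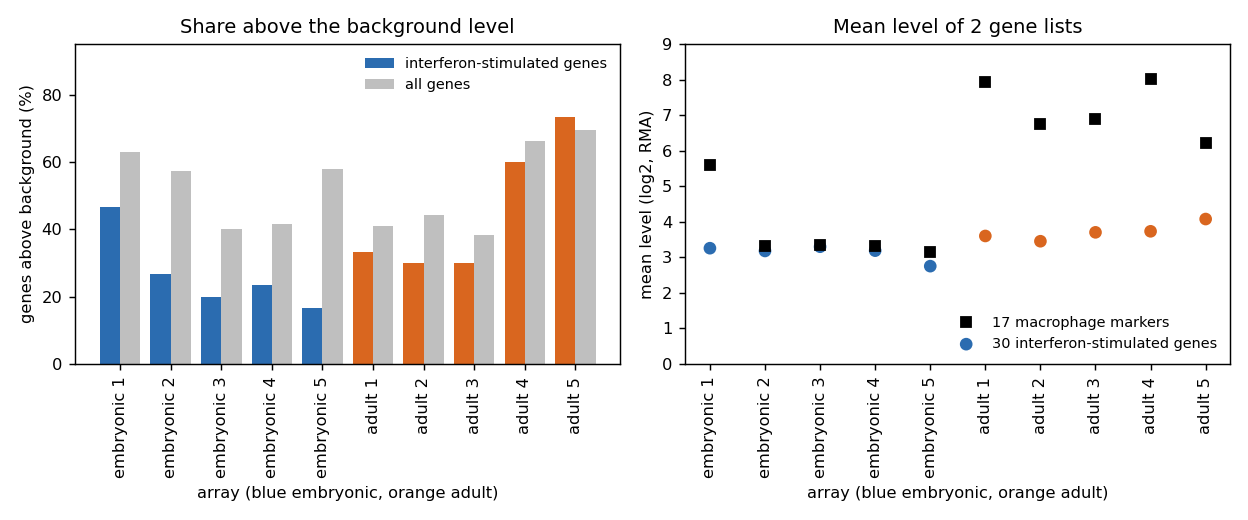
Left, share of the 30 interferon-stimulated genes (blue embryonic, orange adult) and of all genes (grey) above the background level on each array, in percent. Right, mean log2 level of these genes (circles) and of 17 macrophage markers (squares), whose adult arrays lie at 6.23 to 8.02 and embryonic arrays at 3.14 to 5.59.

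Macrophage markers differed between the stages as well. Of 17 macrophage markers measured, 8 rose in adult samples and 0 fell, where 0.612% and 0.647% of all genes did. Their mean level was 3.14 to 5.59 on embryonic and 6.23 to 8.02 on adult arrays, without overlap, while the mean level of the 30 interferon-stimulated genes was 2.75 to 3.30 and 3.45 to 4.08. Embryonic replicate 1 had the highest macrophage level of its stage, 5.59 against 3.14 to 3.36 on the other embryonic arrays, and the highest embryonic value of 5 of the 30 genes (Ifit2, Dtx3l, Irf7, Ifi27 and Rtp4). The highest embryonic value fell on embryonic replicates 2 to 5 for 7, 8, 8 and 2 genes. Embryonic replicate 1 was also the lowest of all 10 arrays for 5 others (Ifit3, Herc6, Rsad2, Mx1 and Dhx58). These 5 were below background on all embryonic arrays, so their order there cannot be read as a difference. Above background on embryonic replicate 1 were 14 of the 30 genes, against 5 to 8 on the other embryonic arrays. Of all genes 62.9% were, against 40.1% to 57.8%. Adult replicate 4 had the highest macrophage level of all and was the highest array for 1 of the 30 genes, where it was so for 15.2% of all genes. It had 17 of the 30 genes above their own means, and their mean level there was 3.73. Only adult replicate 5 was higher on these 2 measures, with 20 genes and a mean level of 4.08. Of the macrophage markers, Cd163, Fcgr3a and Itgam were below background on all embryonic arrays and 0 of 17 on all adult arrays. The part of these cells in the differences was not tested.

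Of 13 markers of T and NK cells, 0 passed the threshold by limma in either direction and 0 had an unadjusted p under 0.05. Their mean level was 2.54 to 3.08 on embryonic and 2.46 to 3.07 on adult arrays. The T cell receptor chains Cd3d, Cd3e and Cd3g were below background on all 10 arrays. Schwann cell markers, with 0 of 7 past the threshold by limma and 2 higher at an unadjusted p under 0.05, had mean levels of 4.71 to 5.36 and 5.26 to 7.19. Fibroblast markers had 0 of 8 past it, while unadjusted p under 0.05 held for 2 with higher and 1 with lower adult levels, and mean levels of 3.68 to 5.57 and 3.48 to 7.62. Satellite glial markers had 0 of 6 past it and mean levels of 4.74 to 6.21 and 4.71 to 7.10. Endothelial markers had 0 of 7 past it and mean levels of 2.60 to 3.31 and 2.79 to 3.46. Of all genes, 1.26% passed it, and at an unadjusted p under 0.05 6.28% were higher and 7.01% lower.

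Of 60 measured pathway genes outside the list, 2 rose and 1 fell past the threshold, where 1.26% of all genes passed it, and their median difference was 0.50. At an unadjusted p under 0.05, 14 were higher and 1 was lower, where 6.28% and 7.01% of all genes were. All 3 that passed were effectors. By limma 0 of 3 ligands, 6 receptors, 8 transducers, 8 sensors and 7 inhibitors passed, and at an unadjusted p under 0.05 there were 0, 2, 1, 3 and 1 of them higher in adult samples.

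The ligands measured, 3 of 8 listed, were at the bottom of the scale. Ifna1, Ifna4, Ifna5, Ifne and Ifnl3 had no probe set tied to a single symbol, so nothing can be said of them. Ifnb1, interferon beta, read 2.36 to 3.91 on embryonic and 2.16 to 2.92 on adult arrays, and Ifng, interferon gamma, at 1.81 to 2.02 and 1.47 to 2.12. Both were below background on all 10 arrays. Ifnk was above it on 1 embryonic array.

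All 6 measured receptor chains had differences above 0, and 0 of 6 passed the threshold by limma. Ifnar1 passed background on 3 arrays of embryonic and 4 of adult samples, Ifnar2 on 3 and 3, and Ifngr1 on 2 and 5, so neither type I chain met the rule of all 5 arrays in either stage. Ifnar1 averaged 3.60 ± 0.40 on embryonic and 3.91 ± 0.68 on adult arrays, and Ifnar2 at 4.02 ± 1.63 and 4.50 ± 1.65 (SD, n = 5). Their differences were 0.31 ± 0.35 and 0.49 ± 0.91 (SE; adjusted p = 0.90 and 0.95 by limma). Ifngr1, the ligand-binding chain for interferon gamma, read 6.69, 3.10, 3.66, 2.27 and 5.27 on embryonic and 5.73, 5.34, 5.77, 7.85 and 7.69 on adult arrays. The wide arrays were high in both stages, and the difference was 2.28 ± 0.84 (SE; adjusted p = 0.35 by limma, and 0.019 with wide or narrow spread as a block). Jak1, the kinase shared by these receptors, was at 6.19 ± 1.12 and 6.71 ± 1.67 (SD, n = 5; adjusted p = 0.93 by limma).

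Psmb8, a catalytic subunit of the immunoproteasome, rose in adult samples. It was at 2.94, 2.76, 3.05, 2.03 and 2.60 on embryonic arrays, all below background, and at 7.60, 4.24, 8.21, 6.22 and 5.92 on adult arrays, all above it. The difference was 3.76 ± 0.65 (SE; adjusted p = 0.024 by limma), at least 7.23-fold. B2m, the light chain of class I antigen-presenting molecules, also rose. It read 8.72, 7.84, 7.78, 9.20 and 8.34 on embryonic and 10.93, 10.09, 9.91, 10.31 and 10.69 on adult arrays. The stages did not overlap, and the difference was 2.01 ± 0.34 (SE; adjusted p = 0.021 by limma).

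Isg20, an exonuclease that degrades RNA, fell in adult samples. It was at 4.79, 4.56, 6.93, 6.66 and 7.63 on embryonic arrays, all above background, and at 2.83, 2.26, 2.03, 1.69 and 1.72 on adult arrays, all below it. The difference was -4.01 ± 0.58 (SE; adjusted p = 0.010 by limma), at least 6.03-fold lower. The call of Isg20 remained when any 1 array was left out. Psmb8 and B2m both missed the threshold when embryonic replicate 2, 3 or 5 or adult replicate 1 or 4 was left out, with adjusted p of 0.055 to 0.068 by limma. B2m also missed it with trend and robust variance (0.074), with its lowest-mean probe set (0.052) and without probe sets of shared sequence (0.054).

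In all, 5 of the 60 did not overlap with adult samples higher, where 1.67% of all genes did, and 3 of these missed the threshold. Irf5, a transcription factor downstream of RNA sensors, differed by 2.03 ± 0.50 (SE; adjusted p = 0.12 by limma), with 2.86 to 4.55 on embryonic and 4.56 to 6.91 on adult arrays. Ube2l6, the enzyme that conjugates Isg15, differed by 1.88 ± 0.50 (SE; adjusted p = 0.15 by limma), with 1.79 to 2.89 and 3.16 to 5.72. It was below background on all embryonic arrays and above it on 2 adult arrays, at least 1.69-fold higher. Nmi, the partner of Ifi35, differed by 1.58 ± 0.53 (SE; adjusted p = 0.28 by limma), with 2.08 to 3.13 and 3.27 to 6.19. It was below background on all embryonic arrays and above it on 3 adult arrays, at least 1.49-fold higher.

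**Figure D5:**
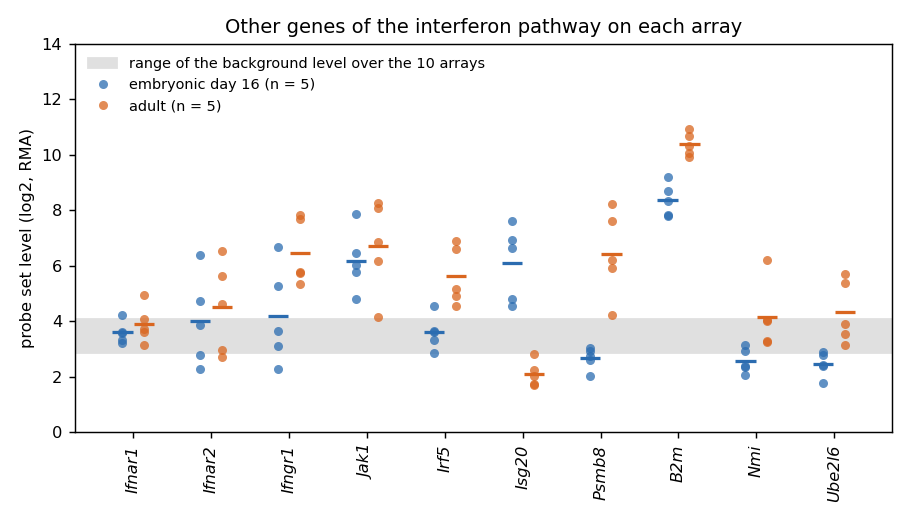
Level of the named pathway genes outside the list on each array (log2, RMA), with embryonic arrays in blue, adult arrays in orange and short lines at the means of 5 arrays. Psmb8 and B2m lie higher on adult arrays, Isg20 lies lower, and the grey band spans the background levels from 2.87 to 4.09.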

How the data were processed

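Total RNA of cultured sensory axons was labelled with biotin by in vitro transcription and hybridised to Affymetrix rat arrays, 1 array a sample. The deposited values are log2 levels made by the authors with RMA, per the submitters' processing notes. The base is not stated and was taken from the range of the values, and no other RMA setting is stated in the labels. Of 31099 probe sets, 57 controls were left out and 31042 tested. The platform annotation gave 20826 a single gene symbol, 436 several and 9780 none. The single-symbol probe set brightest on average stood for a gene, and levels are not compared between genes.

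Adult and embryonic samples were compared with limma 3.58.1 (R 4.3.3; lmFit and eBayes, two-sided, Benjamini-Hochberg over all tested probe sets, threshold 0.05), which was also tested on simulated data. The replicate number was not a block. Errors rest on 5 samples a stage. Background came from 80 probe sets of 68 genes. Values on every array were given for genes past the threshold or without overlap and for the 8 largest differences, and for other genes where the arrays disagreed, chosen after their values were seen. Promoters and gene neighbours are RefSeq's, build GRCr8. Alternatives covered scaling, filters, variance models, array weights, probe set choice, array spread, background level and leaving out each replicate. The members and lists were chosen with earlier results of these data known.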

Additional observations from a re-analysis of the deposited data

Results flagged for a closer look

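In groups of 5 arrays, a value was picked out when its gap to the nearest other value, divided by the whole range, exceeded 0.71. For normally distributed values chance does this in about 1 of 20 groups. Of the 60 groups of interferon-stimulated genes 9 were picked out, all by a high value. The share over all genes was not computed and many of these genes lay below background, so no excess can be read from this. On adult replicate 3, Ifit3 was at 6.12 (next highest 2.30) and Rig1 at 7.87 (next 4.14). On adult replicate 5, Gbp2 was at 7.87 (next 2.18), Gbp4 at 5.79 (next 2.59) and the pathway gene Nmi at 6.19 (next 4.05). On adult replicate 1, Parp14 was at 6.45 (next 4.66) and Dhx58, below background, at 2.42 (next 2.08). On embryonic replicate 1, Ifit2 was at 4.32 (next 2.28) and Dtx3l at 4.43 (next 2.55). On embryonic replicate 3, Gbp4 was at 6.59 (next 3.21).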

How the results depend on the processing

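Across 23 alternatives and 40 named genes, 821 of 897 values kept direction and side of the threshold. The cause of the others was not tested. Interferon-stimulated genes past the threshold went from 0 to 1, Parp14, under cyclic loess scaling, the filter on weak probe sets, array weights and the spread as a block. All genes past it went from 179 to 317 with the filter, 276 with the spread block and 0 within wide arrays, and the median went from 0.51 to 0.85 with the filter, which 11 of 30 genes pass. Genes without overlap numbered 0 with the lowest-mean probe set, 15 within wide and 5 within narrow arrays. Pathway genes past the threshold numbered 5 with the spread block and 0 within wide or narrow arrays. Genes above background numbered 5 (embryonic) at the 90th percentile, and 1 in each stage at the 99th. Leaving out 1 array gave 101 to 248 genes past the threshold, 0 to 1 interferon-stimulated genes, 1 to 3 without overlap, 1 to 5 pathway genes and medians of 0.38 to 0.53.

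Directions turned for Stat2 under cyclic loess (0.11), the mean of probe sets (0.61), the lowest-mean probe set (1.31) and within narrow arrays (0.0016). With array weights, Irf9 was at -0.21, Oas1a at -0.0093 and Oas1b at 0.012. Dhx58 was at 0.026 with the mean of probe sets. The lowest-mean probe set gave -0.034 for Mx2, -0.36 for Ifit2 and -0.067 for Igtp. Within wide arrays Isg15 was at 0.46, Ifit1 at -0.088, Irf9 at -0.53, Oas1a at -0.10, Gbp2 at 2.24, Gbp4 at 1.56, Irgm at 0.33 and Dhx58 at 0.039. Within narrow arrays Parp9 was at -0.070 and Jak1 at -0.015. Leaving out 1 array gave ranges across 0 for Gbp2 (-1.93 to 0.10), Gbp4 (-1.09 to 0.40), Ifnar2 (-0.021 to 1.08), Irf9 (-0.34 to 0.60), Irgm (-0.29 to 0.059), Mx2 (-0.082 to 0.21), Oas1a (-0.18 to 0.21), Oas1b (-0.27 to 0.24), Oasl (-0.90 to 0.0083) and Stat2 (-0.42 to 0.26).

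With the replicate number as a block, 135 genes and 0 interferon-stimulated genes passed, and Isg20 had an adjusted p of 0.060 by limma. Same-numbered samples correlated at -0.12 to 0.28, and 1 of 5, replicate 5, correlated best with its own number. The labels name no batch, so whether same-numbered samples shared more than a number cannot be told. The number of arrays and weak signal limit precision.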

Other observations

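The interferon-induced transmembrane proteins block viral entry at membranes. Ifitm1, Ifitm2 and Ifitm3 passed background on 4, 5 and 4 embryonic arrays and on all 5 adult arrays. Ifitm1 averaged 5.68 ± 1.83 on embryonic and 9.25 ± 1.51 on adult arrays (SD, n = 5), a difference of 3.57 ± 0.94 (SE; adjusted p = 0.14 by limma). Ifitm2 was at 5.90 ± 1.05 and 7.20 ± 0.45 (SD, n = 5; adjusted p = 0.34 by limma) and above background on all 10 arrays. Ifitm3 was at 3.49 to 5.68 on embryonic arrays, and on adult arrays at 4.41 and 4.66 for replicates 1 and 2 and 7.48 to 8.42 for the others (adjusted p = 0.52 by limma). The chemokines Cxcl9 and Cxcl10, which draw T cells, were below background on all 10 arrays. Tlr7, an endosomal RNA sensor, read 1.56 to 4.10 on embryonic and 2.61 to 7.44 on adult arrays (adjusted p = 0.27 by limma). These genes were chosen after their values were seen.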
